A study of Mus musculus with 27 samples.

Results

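The muscle nicotinic acetylcholine receptor subunits are the 5 genes Chrna1, Chrnb1, Chrnd, Chrne and Chrng, which were taken by gene name, without use of any measured value, from a table of 54532 genes. They were followed in tibialis anterior muscle of male C57BL/6 mice after volumetric muscle loss, an injury in which 40% of the muscle is excised. The groups were uninjured muscle (5 samples) and muscle explanted 3 days (5 samples), 7 days (6 samples), 14 days (6 samples) and 21 days (5 samples) after the excision. The mice are described as 8 weeks old, without a statement of their age at explant in each group, so age at explant may differ between groups. The series record describes the excision as unilateral and the study's methods describe it as bilateral, and the labels do not say whether the samples of a group come from separate animals. Polyadenylated RNA of whole muscle was sequenced, and the values used are FPKM, which are read counts scaled by gene length and by library, so that levels can be compared between genes per length.

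The receptor of the muscle membrane is a ring of subunits that opens to cations when acetylcholine released by the motor nerve binds to it. Fetal and denervated muscle builds the ring with the gamma subunit (Chrng), spread over the fibre, whereas innervated adult muscle replaces gamma with epsilon (Chrne) and holds the receptor at the synapse. The alpha, beta and delta subunits (Chrna1, Chrnb1, Chrnd) belong to both forms, so the ratio of Chrng to Chrne describes the balance of fetal and adult subunit transcripts.

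Between 14376395 and 24436763 reads per sample were assigned to genes, with a median of 17398586. All 10 genes of a mature fibre list were detected in all 27 samples, and the sum of their FPKM ranged from 22312.8 in 1 day 3 sample to 94058.6 in 1 uninjured sample, with Acta1 (skeletal muscle actin) the most abundant. The tissue label therefore had its defining markers in every sample.

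Several libraries stood apart from their group. Distances to group means were taken over all tested genes other than the 5 subunits. By that measure 9 of 27 libraries lay nearest the mean of another group: day 3 replicate 5, day 7 replicates 3, 5 and 6, day 14 replicates 1, 3 and 6, and day 21 replicates 3 and 5. Of these, 2 libraries (day 7 replicates 3 and 6) lay nearer the uninjured mean than the mean of day 7. Replicate 5 of day 3 was closer to the day 7 mean (root mean square distance 0.39) than to its own (0.514), and replicate 5 of day 7 was closer to the day 3 mean (0.359) than to its own (0.679). Whether labels or sampling differ in these libraries cannot be told from the files. Results that rest on such libraries are given with all samples first and then without them. The sets of libraries left out were chosen after seeing the data, apart from the pair of day 3 replicate 5 and day 7 replicate 5, which earlier results of the same data had singled out. Leaving out libraries because they lie far from their group narrows the spread within groups by construction and leaves fewer samples. Smaller adjusted p values without them are therefore no added support for a difference.

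All 5 genes passed the filter on low values (at least 0.5 FPKM in at least 5 samples), as did 14630 genes in all. Chrng and Chrnd passed only with the injured samples, since 0 and 3 of 5 uninjured samples reached 0.5 FPKM, so the number of subunits tested is no support for a change. Genes of the other lists with an uninjured mean under 0.5 FPKM likewise passed only with the injured samples. The same limit holds for the counts of those lists. Differences were tested with limma on log2(FPKM + 1) over the 27 samples, two-sided, and called at an adjusted p under 0.05. Fewer cells of a type and less RNA per cell cannot be told apart in these bulk samples. The 4 comparisons with uninjured muscle share the same 5 uninjured samples.

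Chrna1 encodes the alpha subunit, which carries the main part of the acetylcholine binding site. Its level in uninjured muscle was 2.93, 5.11, 3.44, 3.82 and 3.68 FPKM in replicates 1 to 5. At day 3 it was 38.2, 48.2, 50.2, 59.0 and 14.5 FPKM. Every day 3 sample lay above every uninjured sample, with replicate 5 the lowest of the group. Day 7 ranged from 6.21 to 70.5 FPKM with a median of 43.6, and day 14 from 24.4 to 67.8 FPKM with a median of 50.5. At day 21 it was 42.1, 43.6, 37.1, 47.2 and 4.94 FPKM. Replicates 3 and 6 of day 7 were just above the uninjured samples, and replicate 5 of day 21 was within them.

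The mean of Chrna1 was 3.79 ± 0.811 FPKM (SD, n = 5) in uninjured muscle, 42.0 ± 17.1 (n = 5) at day 3, 38.9 ± 28 (n = 6) at day 7, 46.7 ± 15.9 (n = 6) at day 14 and 35.0 ± 17.2 (n = 5) at day 21. Chrna1 rose against uninjured muscle at every time, by 3.04 ± 0.586 (SE) on the log2(FPKM + 1) scale at day 3 (adjusted p = 2.03e-04, 5 of 5 samples above all uninjured samples). The rise was 2.57 ± 0.561 at day 7 (adjusted p = 0.00179, 6 of 6 samples), 3.25 ± 0.561 at day 14 (adjusted p = 5.24e-04, 6 of 6 samples) and 2.62 ± 0.586 at day 21 (adjusted p = 0.0146, 4 of 5 samples). Without day 21 replicate 5 the day 21 difference was 3.19 (adjusted p = 0.00213), and without the 9 libraries nearest another group it was 3.25 (adjusted p = 8.09e-08). Rescaling each sample to a common sum ended the day 21 call (2.89, adjusted p = 0.0709), with 2.74 less the median of all genes. No pair of times after injury differed in Chrna1 at an adjusted p under 0.05.

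Chrnb1 encodes the beta subunit, a structural part of both receptor forms. Its level in uninjured muscle was 11.8, 15, 19.5, 16.9 and 13.1 FPKM. Day 3 gave 17.7, 23, 19, 19.4 and 30.7 FPKM. The groups overlapped, and only replicates 2 and 5 of day 3 were above all uninjured samples. Day 7 ranged from 14.6 to 45.5 FPKM with a median of 26.4, and day 14 from 33.5 to 51.3 FPKM with a median of 45.1. Day 21 gave 36.5, 39.0, 29.7, 33.7 and 26.9 FPKM. All samples of days 14 and 21 lay above all uninjured samples, whereas day 7 fell into 3 high and 3 low samples.

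The difference of Chrnb1 from uninjured muscle was 0.49 ± 0.242 (SE) at day 3 and was not called (adjusted p = 0.105). It rose by 0.78 ± 0.231 at day 7 (adjusted p = 0.0140, 3 of 6 samples above all uninjured samples), 1.47 ± 0.231 at day 14 (adjusted p = 2.42e-04, 6 of 6 samples) and 1.08 ± 0.242 at day 21 (adjusted p = 0.0146, 5 of 5 samples). Between times after injury, day 14 was above day 3 by 0.98 ± 0.231 (adjusted p = 0.00396), with all 6 day 14 samples above all day 3 samples. Means were 15.3 ± 3.06 FPKM (SD, n = 5) in uninjured muscle, 22 ± 5.27 (n = 5) at day 3, 29.1 ± 13.8 (n = 6) at day 7, 43.9 ± 6.04 (n = 6) at day 14 and 33.2 ± 4.92 (n = 5) at day 21. Without the 9 libraries nearest another group, day 7 was also above day 3 in Chrnb1, by 1.02 (adjusted p = 2.88e-04), and the day 3 difference from uninjured muscle was 0.37 and was called (adjusted p = 0.0356). Leaving out day 3 replicate 5 alone gave 0.71 for day 21 against day 3 (adjusted p = 0.0352), against 0.59 (adjusted p = 0.0739) with all samples. Fitting only the samples of the pair compared ended the day 7 call (0.78, adjusted p = 0.0785), within a range from 1.78e-06 to 0.0785 over the alternatives. Rescaling to a common sum ended the day 21 call (1.29, adjusted p = 0.111) and that of day 14 against day 3 (0.66, adjusted p = 0.194). Less the median of all genes these values were 1.14 and 0.94.

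Chrnd encodes the delta subunit, which forms a binding site with the alpha subunit in both receptor forms. Its level in uninjured muscle was 0.913, 2.0, 0.259, 0.420 and 0.935 FPKM. The day 3 samples had 8.83, 7.08, 10.7, 16.4 and 2.74 FPKM. The groups did not overlap, although the uninjured samples spread widely for so low a level. Day 7 ranged from 1.18 to 20.1 FPKM with a median of 10.8, and day 14 from 11.1 to 17.2 FPKM with a median of 13.9. The day 21 samples had 13.1, 12.5, 11.2, 12.2 and 3.43 FPKM. Replicates 3 and 6 of day 7 overlapped the uninjured samples, and every sample of days 14 and 21 was above them.

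Chrnd rose by 2.32 ± 0.50 (SE) at day 3 (adjusted p = 6.07e-04, 5 of 5 samples above all uninjured samples), 2.16 ± 0.479 at day 7 (adjusted p = 0.00205, 4 of 6 samples), 3.04 ± 0.479 at day 14 (adjusted p = 2.52e-04, 6 of 6 samples) and 2.55 ± 0.50 at day 21 (adjusted p = 0.00559, 5 of 5 samples). Means were 0.905 ± 0.679 FPKM (SD, n = 5) in uninjured muscle, 9.16 ± 5.01 (n = 5) at day 3, 10.2 ± 8.04 (n = 6) at day 7, 14.1 ± 2.61 (n = 6) at day 14 and 10.5 ± 4.0 (n = 5) at day 21. With limma-voom on read counts recovered from the FPKM, Chrnd at day 21 was 3.62 higher but not called (adjusted p = 0.0786, the highest of a range from 1.09e-08 over the alternatives). No pair of times after injury differed in Chrnd at an adjusted p under 0.05.

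Chrng encodes the gamma subunit of the fetal receptor. In uninjured muscle it was 0.0361, 0, 0.0614, 0.137 and 0.0656 FPKM, which stand for 2, 0, 3, 7 and 4 reads. At day 3 it was 19.1, 18.8, 19.3, 24.7 and 1.94 FPKM, from 172 to 2341 reads. Every day 3 sample was above every uninjured sample, and replicate 5 was far below the other 4. Day 7 ranged from 0.183 to 9.61 FPKM with a median of 8.11, and day 14 from 6.05 to 9.69 FPKM with a median of 7.22. Day 21 gave 10.2, 10.9, 6.72, 12.5 and 3.46 FPKM. Day 7 replicates 3 (13 reads) and 6 (22 reads) were just above the uninjured samples, and the other injured samples were well above them.

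Chrng rose by 3.76 ± 0.556 (SE) at day 3 (adjusted p = 1.23e-05, 5 of 5 samples above all uninjured samples), 2.22 ± 0.532 at day 7 (adjusted p = 0.00355, 6 of 6 samples), 3.00 ± 0.532 at day 14 (adjusted p = 6.71e-04, 6 of 6 samples) and 3.10 ± 0.556 at day 21 (adjusted p = 0.00370, 5 of 5 samples). These differences depend on the added 1 FPKM because the uninjured level lies far under it. The mean was 0.0599 ± 0.0502 FPKM (SD, n = 5) in uninjured muscle and 16.8 ± 8.64 (n = 5) at day 3, a ratio of means of 279.7. Counting error of the 16 uninjured reads alone (exact Poisson 95% interval, 9.14 to 26 reads) allows 172 to 489. The means of 5.84 ± 4.34 (n = 6) at day 7, 7.57 ± 1.32 (n = 6) at day 14 and 8.74 ± 3.62 (n = 5) at day 21 gave ratios of 97.5 (60.01 to 170.5), 126 (77.7 to 221) and 146 (89.7 to 255). Reads made by amplification are not independent molecules, so these intervals cover counting error only.

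Between times after injury no difference in Chrng was called with all samples, and day 7 differed from day 3 by -1.54 ± 0.532 (adjusted p = 0.138). That pair was called without day 3 replicate 5 (-2.12, adjusted p = 0.0149), without day 7 replicate 5 (-1.74, adjusted p = 0.0377) and without both (-2.31, adjusted p = 0.00121). Day 14 against day 3 was -0.76 (adjusted p = 0.346) with all samples and -1.33 (adjusted p = 0.0441) without day 3 replicate 5. Without the 9 libraries nearest another group, days 7, 14 and 21 were below day 3 by -1.16, -1.21 and -0.82 (adjusted p = 1.9e-05, 4.1e-06 and 1.28e-04). Limma-voom did not call Chrng at day 7 (6.26, adjusted p = 0.0606) or at day 21 (7.47, adjusted p = 0.114) against uninjured muscle. At each of these times 14 of 15 alternatives kept the call, some of them with libraries left out after seeing the data.

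Chrne encodes the epsilon subunit of the adult receptor. In uninjured muscle it was 9.37, 19.2, 13.7, 9.81 and 11.9 FPKM. At day 3 it was 5.59, 9.04, 2.38, 1.92 and 15.9 FPKM. Replicates 1 to 4 of day 3 lay below all uninjured samples and replicate 5 among them. Day 7 ranged from 2.97 to 31.4 FPKM with a median of 14.3, and day 14 from 13.7 to 24.8 FPKM with a median of 15.3. The day 21 samples had 16.8, 17.7, 14.0, 31.9 and 27.6 FPKM. Days 7, 14 and 21 overlapped the uninjured samples, and the lowest day 7 sample was replicate 5 and the highest replicates 3 and 6.

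No difference of Chrne from uninjured muscle was called: it was -1.06 ± 0.447 (SE) at day 3 (adjusted p = 0.0582), 0.16 ± 0.428 at day 7, 0.42 ± 0.428 at day 14 and 0.69 ± 0.447 at day 21. Means were 12.8 ± 3.95 FPKM (SD, n = 5) in uninjured muscle, 6.97 ± 5.76 (n = 5) at day 3, 17.3 ± 11.2 (n = 6) at day 7, 17.2 ± 4.17 (n = 6) at day 14 and 21.6 ± 7.68 (n = 5) at day 21. The day 3 difference was called without replicate 5 of that group (-1.40, adjusted p = 0.0114) and without replicate 2 (-1.22, adjusted p = 0.0415), and by limma-voom (-1.34, adjusted p = 0.0429). Over the alternatives its adjusted p ran from 5.36e-04 to 0.433, the latter after rescaling to a common sum. The day 7 difference of 0.16 turned to -0.05 without day 7 replicate 3 and to -0.06 without replicate 6.

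Between times after injury, Chrne at day 14 was above day 3 by 1.47 ± 0.428 (adjusted p = 0.0167) and at day 21 by 1.75 ± 0.447 (adjusted p = 0.00556), with 2 of 6 and 4 of 5 samples above all day 3 samples. The day 14 difference was no longer called without day 3 replicate 3 (1.24, adjusted p = 0.0700) or replicate 4 (1.19, adjusted p = 0.0797). Day 7 differed from day 3 by 1.22 ± 0.428 (adjusted p = 0.145), which was called without day 3 replicate 5 (1.57, adjusted p = 0.0315) or day 7 replicate 5 (1.60, adjusted p = 0.00382).

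**Figure D1:**
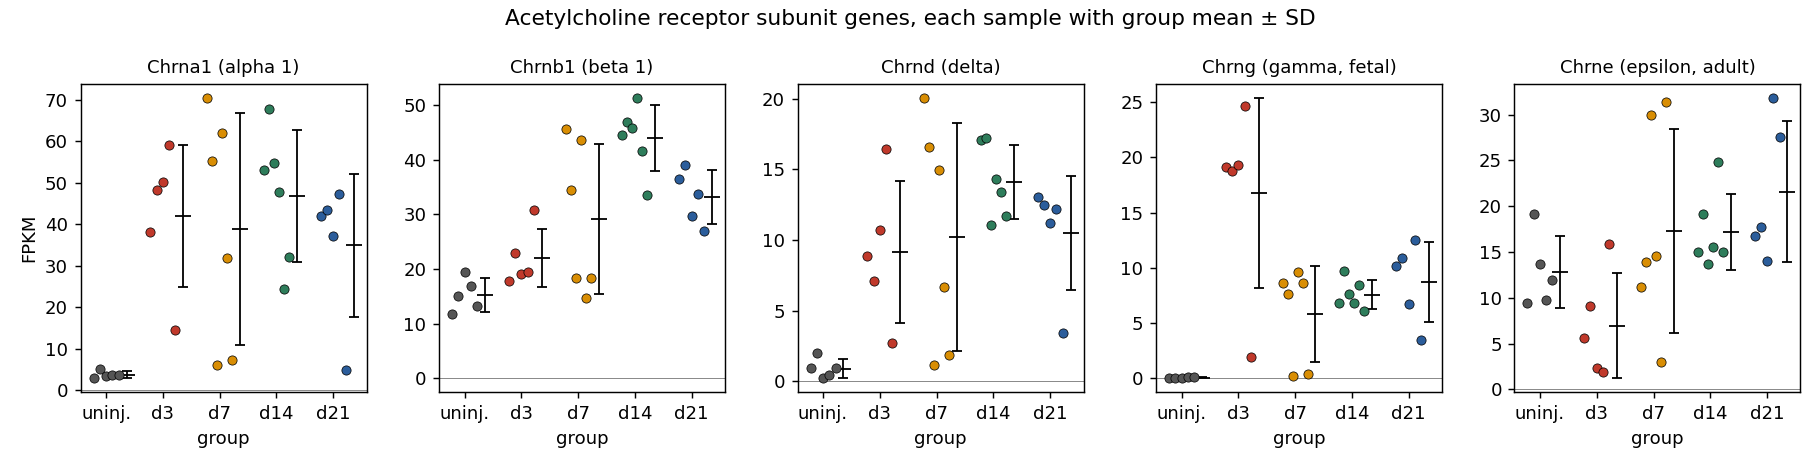
FPKM (vertical axes) of the 5 subunit genes in each sample, by group (horizontal axes; uninjured and days 3, 7, 14 and 21), with the group mean ± SD beside the points (n = 5, 5, 6, 6 and 5). Chrna1, Chrnd and Chrng had single low samples at day 3 (14.5, 2.74 and 1.94 FPKM) where Chrne had its highest (15.9 FPKM), and 2 day 7 samples with Chrng at 0.183 and 0.424 FPKM had Chrne at 30.01 and 31.4 FPKM.

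Counted together, 3 of 5 subunit genes were called higher at day 3, where 23.4% of all tested genes were called higher, and 0 of 5 were called lower, beside 19.8%. At day 7 it was 4 of 5 higher, beside 15%, and 0 lower, beside 14.4%. At day 14 it was 4 of 5 higher, beside 9.02%, and 0 lower, beside 11.3%. At day 21 it was 4 of 5 higher, beside 1.74%, and 0 lower, beside 1.69%. With limma the number of subunit genes at an unadjusted p under 0.05 was 4 in each of these comparisons, of which 1 (Chrne at day 3) was lower. Limma-voom called 3, 3, 4 and 2 higher, and 1 (Chrne at day 3), 0, 0 and 0 lower. The median difference over the 5 genes was 2.32, 2.16, 3.00 and 2.55 at days 3, 7, 14 and 21, and the median of all tested genes was 0.01, 0.03, 0.02 and 0.01.

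Every sample lay above every uninjured sample for 3 of 5 subunit genes at day 3 (Chrna1, Chrnd, Chrng), as for 19.8% of all tested genes. At day 7 this held for 2 of 5 (Chrna1, Chrng), beside 7.25%, and at day 14 for 4 of 5 (all but Chrne), beside 7.67%. At day 21 it held for 3 of 5 (Chrnb1, Chrnd, Chrng), beside 5.26%.

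Between times after injury, 2 of 5 subunit genes (Chrnb1, Chrne) were called higher at day 14 than at day 3, beside 5.03% of all tested genes, and 0 lower, beside 13.7%. Day 21 was higher than day 3 in 1 of 5 (Chrne), beside 9.23%, and lower in 0, beside 16.2%. Limma called 0 subunit genes between day 7 and day 3, where 0% of all tested genes were higher and 0.0478% lower, with 2 subunit genes at an unadjusted p under 0.05. Between day 14 and day 7 it called 0, beside 0.116% higher and 0.219% lower, with 1 gene at an unadjusted p under 0.05. Between day 21 and day 7 it called 0, beside 0.499% higher and 1.75% lower, and between day 21 and day 14 it called 0, beside 0% in either direction, each with 0 genes at an unadjusted p under 0.05. Limma-voom called 0 subunit genes in each of these last 4 pairs.

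The scaling between libraries moved all genes together. The authors' scaling divisor averaged 0.782 times the assigned reads in uninjured muscle and 1.25, 1.18, 1.04 and 0.897 times at days 3, 7, 14 and 21, so that it ran with the group and the part of either in the levels cannot be told apart. The median difference of all tested genes from uninjured muscle was 0.01, 0.03, 0.02 and 0.01 at days 3, 7, 14 and 21 in the FPKM as deposited. Rescaling each sample to a common sum (TPM) put it at 0.62, 0.58, 0.36 and 0.15, and quantile normalization put it at -0.12 at day 3. No subunit gene had another direction against uninjured muscle under either scaling. Under the common sum, Chrnb1 was called at day 3 (1.31, adjusted p = 0.00418), a difference that includes the shift of all genes. Its day 21 difference (1.29, adjusted p = 0.111), that of Chrna1 (2.89, adjusted p = 0.0709) and the day 14 difference of Chrnb1 from day 3 (0.66, adjusted p = 0.194) were not called. Less the median of all genes these 4 values were 0.69, 1.14, 2.74 and 0.94, and the other day 3 differences were 3.33 for Chrna1, 2.70 for Chrnd, 4.40 for Chrng and -1.01 for Chrne. The values less the median were not tested.

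The order of the mean levels differed between groups. In uninjured muscle it was Chrnb1, Chrne, Chrna1, Chrnd and Chrng from high to low, where the ranges of the first 2 overlapped and those of the other neighbours did not. At day 3 it was Chrna1, Chrnb1, Chrng, Chrnd and Chrne, with overlapping ranges between each gene and the next. At days 7, 14 and 21 it was Chrna1, Chrnb1, Chrne, Chrnd and Chrng, and at day 7 each gene again overlapped the next. At day 14 all Chrnb1 samples (33.5 FPKM and above) lay above all Chrne samples (24.8 FPKM and below), and all Chrnd samples (11.1 FPKM and above) above all Chrng samples (9.69 FPKM and below). At day 21 all Chrne samples (14.0 FPKM and above) lay above all Chrnd samples (13.1 FPKM and below), and the other neighbours overlapped. With the length of the longest protein-coding transcript in place of the authors' gene length, an alternative chosen after seeing the data, the order was the same in uninjured muscle and at days 3 and 7. At day 14 Chrnb1 (mean 51.6) then exceeded Chrna1 (46.7), and the Chrnd (12.3 to 19.2) and Chrng (9.06 to 14.5) samples overlapped. At day 21 Chrnb1 (39.0) exceeded Chrna1 (35.0) and Chrng (13.1) exceeded Chrnd (11.7), so the order of these pairs rests on the length used. All Chrnb1 samples at day 14 still lay above all Chrne samples, and all Chrne samples at day 21 above all Chrnd samples (14.7 and above against 14.6 and below). The 5 genes summed to a median of 31.1 FPKM in uninjured muscle and of 101.7, 96.3, 134 and 119 FPKM at days 3, 7, 14 and 21. Chrng made up a median of 0.166% of that sum in uninjured muscle and of 19%, 5.74%, 5.87% and 8.56% at days 3, 7, 14 and 21. Chrne made up 37.5%, 6.25%, 10.5%, 11.7% and 14.3% in the same order.

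The fetal to adult ratio was taken per sample as log2 of Chrng over Chrne, each with 0.1 FPKM added, so that 0 marks equal levels. In uninjured muscle it was -6.12, -7.59, -6.41, -5.39 and -6.18. At day 3 it was 1.76, 1.05, 2.97, 3.62 and -2.97. Chrng exceeded Chrne in 4 of 5 day 3 samples and in 0 of 5 uninjured samples, and the groups did not overlap. Day 7 ranged from -6.73 to 1.5 with a median of -0.73, and day 14 from -1.55 to -0.84 with a median of -1.15. At day 21 it was -0.72, -0.70, -1.05, -1.34 and -2.96. Chrng exceeded Chrne in 1 of 6 samples at day 7 (replicate 5), 0 of 6 at day 14 and 0 of 5 at day 21, and all samples of days 14 and 21 lay above the uninjured samples. Replicates 3 and 6 of day 7, at -6.73 and -5.91, lay within the uninjured range.

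As a share of both transcripts, Chrng was 0 to 1.37% in uninjured muscle. It was 77.4%, 67.5%, 89.1%, 92.8% and 10.9% at day 3. The median share was 37.5% at day 7 (0.607% to 74.3%), 30.9% at day 14 (25.4% to 35.7%) and 32.4% at day 21 (11.2% to 38.0%). Day 14 was the group with the narrowest spread of this share among the injured groups.

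The mean ratio was -6.34 ± 0.798 (SD, n = 5) in uninjured muscle, 1.28 ± 2.58 (n = 5) at day 3, -2.16 ± 3.34 (n = 6) at day 7, -1.16 ± 0.246 (n = 6) at day 14 and -1.36 ± 0.933 (n = 5) at day 21. Exact permutation tests over samples, two-sided and adjusted over the 10 pairs of groups, gave differences from uninjured muscle of 7.62 at day 3 (exact p = 0.00794, the smallest this design allows, adjusted p = 0.0265). The difference was 5.18 at day 14 (exact p = 0.00216, also the smallest possible, adjusted p = 0.0216) and 4.98 at day 21 (exact p = 0.00794, the smallest possible, adjusted p = 0.0265). At day 7 it was 4.18 and did not pass after adjustment (exact p = 0.0411, adjusted p = 0.0996), with 4 of 6 samples above all uninjured samples. Without day 7 replicate 3 it was 5.09 (permutation, adjusted p = 0.0397), and without replicates 3 and 6 it was 6.26 (permutation, adjusted p = 0.0190). Without replicate 6 alone it was 4.93 and without replicate 5 alone 3.44, and neither passed (permutation, adjusted p = 0.0992 and 0.136). Over the alternatives the day 7 difference ran from 2.05 to 6.26 and its permutation adjusted p from 0.0190 to 0.208. The other differences from uninjured muscle kept their sign but varied in size. Day 3 spanned 4.82 to 9.20, day 14 spanned 2.59 to 6.74 and day 21 spanned 2.41 to 6.54. Uninjured Chrng (0.137 FPKM or less) lies near the added 0.1 FPKM, so these sizes rest partly on that choice. The mean uninjured ratio was -7.90 with 0.01 FPKM added and -3.66 with 1 FPKM added. Leaving out any 1 uninjured sample (replicate 1, 2, 3, 4 or 5) left the day 3 difference at 7.31 to 7.86, with a permutation adjusted p of 0.0529 in each case. All 5 day 3 samples still lay above all uninjured samples. Leaving out day 3 replicate 5 instead, with as many samples, gave 8.69 (permutation, adjusted p = 0.0159). The number of samples alone therefore does not account for the lost call. Among the day 3 samples, replicate 5 (-2.97) lay nearest the uninjured values.

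Between times after injury, no pair passed with all samples. The ratio at day 14 differed from day 3 by -2.44 (exact p = 0.0498, adjusted p = 0.0996), at day 21 by -2.64 (exact p = 0.0714, adjusted p = 0.119) and at day 7 by -3.44 (exact p = 0.104, adjusted p = 0.148). These differences turned on day 3 replicate 5, the only day 3 sample under 0. Without it they were -3.51, -3.70 and -4.51 (permutation, adjusted p = 0.0159, 0.0159 and 0.0476). Without the 9 libraries nearest another group, days 14 and 21 differed from day 3 by -3.58 and -3.27 (permutation, adjusted p = 0.0476 each). Day 14 differed from day 7 by 1.0 (exact p = 0.452), which turned to -1.08 without day 7 replicates 3 and 6 (permutation, adjusted p = 0.0190). Day 21 differed from day 14 by -0.20 (exact p = 0.805), which turned to 0.20 without day 21 replicate 5, and from day 7 by 0.81 (exact p = 0.604), which turned to -0.11 without day 7 replicate 3.

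The level of the ratio depends on the lengths by which reads were scaled. The table gives Chrng a length of 4163 bases, against 2780 bases in its longest protein-coding transcript, and Chrne 1690 against 1616 bases. With the transcript lengths, an alternative chosen after seeing the data, the mean ratio was -6.19 in uninjured muscle and 1.80, -1.69, -0.65 and -0.84 at days 3, 7, 14 and 21. Chrng then exceeded Chrne in 2 of 6 day 7 samples, and in 0, 4, 0 and 0 samples of the uninjured, day 3, day 14 and day 21 groups.

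**Figure D2:**
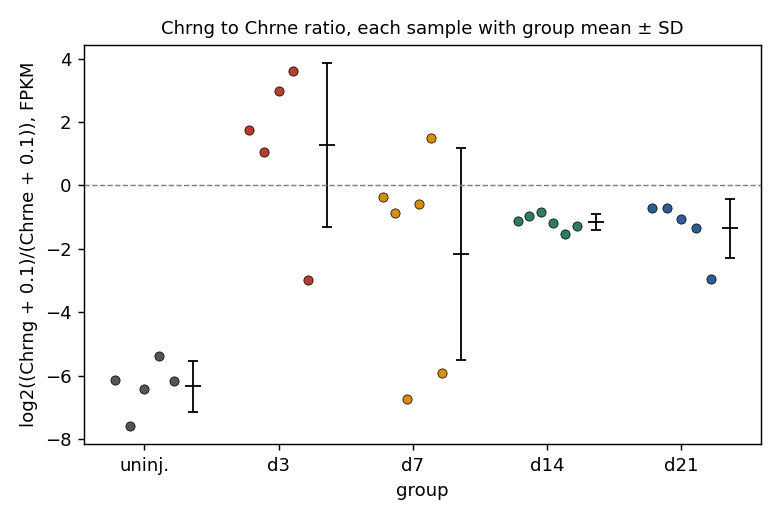
The log2 ratio of Chrng to Chrne (vertical axis, FPKM with 0.1 added to each) in each sample by group (horizontal axis), with the mean ± SD beside the points; the dashed line marks equal levels. Of the 5 day 3 samples, 4 lie above the line, and day 7 replicates 3 and 6 (-6.73 and -5.91) lie among the uninjured samples.

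The shared subunits offer a scale for the pair. Relative to Chrnd, the log2 ratio of Chrng plus Chrne had a median of 3.55 in uninjured muscle (3.20 to 5.27). The medians at days 3, 7, 14 and 21 were 1.47 (0.69 to 2.66), 0.74 (-0.02 to 4.57), 0.79 (0.35 to 1.31) and 1.19 (0.88 to 3.14). The day 3, day 14 and day 21 samples thus lay below the uninjured samples, and day 7 overlapped them. Chrna1 relative to Chrnd kept a like level, with medians of 1.87, 2.22, 1.98, 1.69 and 1.72 in the 5 groups and ranges that overlapped. Chrnb1 relative to Chrnd had a median of 3.67 in uninjured muscle (2.85 to 5.77) and 1.0 (0.24 to 3.44), 1.36 (1.05 to 3.85), 1.57 (1.38 to 2.04) and 1.48 (1.40 to 2.94) at days 3, 7, 14 and 21, with overlap at all times but day 14. These ratios were not tested.

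Mature fibre transcripts moved with injury as well. All 10 fibre genes fell at day 3, when their median difference was -1.40, and 4, 3 and 0 fell at days 7, 14 and 21 (at day 21 also 0 at an unadjusted p under 0.05 and 0 by limma-voom). Limma-voom gave 10, 4 and 3 at the earlier times, and of all tested genes 19.8%, 14.4%, 11.3% and 1.69% fell. Ckm (muscle creatine kinase) fell by 1.43 at day 3 (adjusted p = 0.00125), Pygm (muscle glycogen phosphorylase) by 1.63 (adjusted p = 3.02e-04) and Ryr1 (the calcium release channel) by 1.29 (adjusted p = 4.4e-05). The summed FPKM of the list had a median of 86397 in uninjured muscle and of 42138, 47464, 59017 and 70162 at days 3, 7, 14 and 21. It was 91955 and 83760 in day 7 replicates 3 and 6, the samples with low Chrng, and 27622 in day 7 replicate 5. Set against the median of the fibre genes on the log2(FPKM + 1) scale, Chrne had a median of -8.63 in uninjured muscle (-8.77 to -8.00) and -8.05 (-8.95 to -6.88), -7.15 (-8.60 to -6.83), -7.19 (-8.04 to -5.93) and -7.24 (-7.65 to -6.73) at days 3, 7, 14 and 21. On that scale the day 21 samples lay above all uninjured samples, and days 3, 7 and 14 overlapped them. These values were not tested.

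Markers of other cells moved with some of the same samples. Of 8 leukocyte genes, 8, 7, 3 and 0 rose at days 3, 7, 14 and 21 (limma, with 0 at an unadjusted p under 0.05 at day 21), against 8, 7, 1 and 0 by limma-voom. In all tested genes the share that rose was 23.4%, 15%, 9.02% and 1.74%. The summed FPKM of the leukocyte genes had a median of 26.2 in uninjured muscle and of 1573, 283, 100 and 51.3 at days 3, 7, 14 and 21, with Lyz2 (lysozyme of macrophages) the most abundant in each group. It was 364 in day 3 replicate 5 and 2267 in day 7 replicate 5. Of 6 fibroblast genes, 4, 4, 4 and 2 rose at days 3, 7, 14 and 21 (also by limma-voom), beside the same shares of all tested genes, and their sum had medians of 103, 537, 550, 448 and 204 in the 5 groups. The most abundant fibroblast gene was Dcn in uninjured muscle and Col1a1 (a chain of type I collagen) at each time after injury.

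Schwann cell genes, which mark the sheath of the nerve, gave 0 of 7 called by limma at days 3, 14 and 21, and 1 (Egr2, 0.69, adjusted p = 0.0459) at day 7. At an unadjusted p under 0.05 it was 1, 0 and 0 at days 3, 14 and 21, and limma-voom called 0 at each of the 4 times. At day 7, when 1 of 7 rose, 15% of all tested genes rose. Over 6 of the 7 genes the sums were 5.60 FPKM at the median in uninjured muscle (1.93 to 11.2) and 3.6 at day 3 (3.12 to 4.05). They were 5.65, 5.93 and 5.63 FPKM at the median at days 7, 14 and 21. Day 7 replicate 6 had 51.4 FPKM and replicate 3 had 9.13, against 1.68 to 6.28 in the other 4 samples of that day. Summed over all 7 genes, every day 3 sample (7.145 to 14.95 FPKM) lay below every uninjured sample (17.05 to 151.6 FPKM). That sum was 88.68 and 757.4 FPKM in day 7 replicates 3 and 6, against 2.637 to 13.75 in the other 4 samples. Of 4 endothelial genes, 2 fell at day 3 (Kdr, -1.33, adjusted p = 1.85e-05, and Tek, -0.57, adjusted p = 0.0232) and 1 (Kdr) fell at each later time, with the same counts by limma-voom and sums between 23.7 and 111 FPKM. The share of all tested genes that fell was 19.8%, 14.4%, 11.3% and 1.69% at days 3, 7, 14 and 21. Of 4 muscle progenitor genes, 3, 2, 2 and 2 rose at days 3, 7, 14 and 21 (3, 1, 2 and 1 by limma-voom, and 23.4%, 15%, 9.02% and 1.74% of all tested genes), with sums of 23.5, 290.3, 124.5, 142 and 91.1 FPKM at the median and of 25.1 and 23.9 in day 7 replicates 3 and 6. No gene of the 6 marker lists was at 0 in any sample. The part of these cells in the levels of the subunit genes was not tested.

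The synapse organisers listed encode proteins that gather the receptor at the synapse and signal there. Of 16 genes, 3 rose and 3 fell at day 3, 3 and 3 at day 7, 2 and 3 at day 14, and 0 and 1 at day 21 (limma; 3 and 1 at an unadjusted p under 0.05, and 0 and 1 by limma-voom), with medians of -0.03, 0.02, 0.08 and 0.08. Limma-voom called 3 higher and 3 lower at day 3, 2 and 3 at day 7, and 1 and 2 at day 14. Of all tested genes, 23.4% rose and 19.8% fell at day 3, 15% and 14.4% at day 7, 9.02% and 11.3% at day 14, and 1.74% and 1.69% at day 21. The counts at day 3 were near those shares. The neuregulin receptors Erbb3 and Erbb2 rose at day 3 by 0.76 (adjusted p = 0.00186) and 0.71 (adjusted p = 0.00420). Ptpn11 (the phosphatase SHP2) fell by 0.72 at day 3 (adjusted p = 1.39e-04) and by 0.60 at day 21 (adjusted p = 0.0130). Dok7, the activator of the kinase MuSK, differed by 0.32 at day 3 and 0.53 at day 21 and was not called.

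Of 4 receptor assembly factors tested of 5 (Ric3 did not pass the filter), 3 rose at day 3, 2 at day 7 and 0 later (limma, with 0 at an unadjusted p under 0.05 and 0 by limma-voom), while 1 (Rer1, -0.47, adjusted p = 0.0493) fell at day 14. Limma-voom called 2 higher at day 3, 2 at day 7 and 0 lower at day 14. Of all tested genes 23.4%, 15%, 9.02% and 1.74% rose at days 3, 7, 14 and 21, and 11.3% fell at day 14. The medians were 0.58, 0.39, -0.02 and 0.02 at days 3, 7, 14 and 21. Tmem35a, a chaperone of nicotinic receptors, rose by 1.37 at day 3 (adjusted p = 2.52e-07), from a mean of 0.0377 ± 0.0542 (SD, n = 5) to 1.72 ± 0.538 FPKM (n = 5), and by 0.71 at day 7 (adjusted p = 7.63e-04). Tmem35a passed the filter only with the injured samples, so the counts of this list depend on the filter. Canx (calnexin, a chaperone of the endoplasmic reticulum) rose by 0.79 at day 3 (adjusted p = 0.0220) and Unc50 by 0.38 (adjusted p = 0.0448). Of 8 other nicotinic subunit genes only Chrna10 passed the filter, and it fell by 0.99 at day 3 (adjusted p = 0.00107), 0.99 at day 7 (adjusted p = 0.00203) and 0.61 at day 14 (adjusted p = 0.0491). Limma-voom did not call it at day 14.

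The list of myogenic E-box factors held 6 factors that bind E-boxes, which act on promoters of receptor genes in developing and denervated muscle, and 3 Id inhibitors of such factors. Of the 9 genes, 6, 4, 5 and 5 rose at days 3, 7, 14 and 21, and limma-voom called 6, 4, 5 and 3 higher. The binding factors made up 3, 2, 2 and 2 of the genes that rose, and the inhibitors 3, 2, 3 and 3. Of all tested genes, 23.4%, 15%, 9.02% and 1.74% rose. Limma called 0 of the 9 lower at any time, with 0 at an unadjusted p under 0.05 and 0 by limma-voom. The medians were 1.13, 0.95, 1.33 and 1.16. Myog (myogenin) rose by 5.63 ± 0.785 (SE) at day 3 (adjusted p = 6.34e-06), from 1.78 ± 0.694 (SD, n = 5) to 153 ± 70.1 FPKM (n = 5), and by 3.5 at day 21 (adjusted p = 0.0146). Myod1 rose by 1.85 at day 3 (adjusted p = 1.15e-04) and 1.37 at day 21 (adjusted p = 0.0230). Among the inhibitors, Id2 and Id3 rose by 1.55 and 1.13 at day 3 (adjusted p = 6.25e-05 and 7.29e-04) and by 1.43 and 1.16 at day 21 (adjusted p = 0.00424 and 0.0118).

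Of 5 ETS factors, the class known to act on synaptic promoters such as that of Chrne, 0 rose at any time by limma, at an unadjusted p under 0.05 or by limma-voom, and 1 (Ets2, -0.63, adjusted p = 0.00557) fell at day 3. Among all tested genes 23.4% rose and 19.8% fell at day 3, and 1.74% rose at day 21, where a count of 0 among 5 is little informative. Their medians lay between -0.09 and 0.03. Gabpa, the subunit of GABP that binds DNA, differed by -0.12 at day 3 and -0.25 at day 21 and was not called.

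Of 8 genes of the denervation response, 6 were tested, and 4, 4, 5 and 4 rose at days 3, 7, 14 and 21, with medians of 1.62, 1.20, 1.36 and 1.11. Limma-voom called 4, 3, 4 and 2 higher, and of all tested genes 23.4%, 15%, 9.02% and 1.74% rose. At these times 0 fell by limma, at an unadjusted p under 0.05 or by limma-voom. Runx1, a transcription factor induced in denervated muscle, rose by 2.05 at day 3 (adjusted p = 2.1e-04) and 1.68 at day 21 (adjusted p = 0.0188). Ncam1, an adhesion molecule spread over denervated fibres, rose by 2.23 (adjusted p = 3.47e-06) and 1.27 (adjusted p = 0.0179). Gadd45a rose by 1.80 (adjusted p = 0.0209) and 2.98 (adjusted p = 0.00959). Denervation was not measured in these samples.

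Of 5 developmental sarcomere genes, 4 rose at days 3, 7 and 14 and 0 were called at day 21 (limma; 3 at an unadjusted p under 0.05 and 0 by limma-voom), with medians of 3.68, 2.04, 1.60 and 1.38. Limma-voom called 4 higher at each of days 3, 7 and 14. The shares of all tested genes that rose were 23.4%, 15%, 9.02% and 1.74% at days 3, 7, 14 and 21, and beside 1.74% a count of 0 of 5 at day 21 says little. Myh3 (embryonic myosin) rose by 5.16 at day 3 (adjusted p = 3.23e-06) and differed by 1.38 at day 21 (adjusted p = 0.260). Tnnt2 (cardiac and embryonic troponin T) rose by 3.79 at day 3 (adjusted p = 6.41e-07) and differed by 1.19 at day 21 (adjusted p = 0.122). Whether the day 21 difference of Chrng (3.10) departs from those of the sarcomere genes was not tested.

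**Figure D3:**
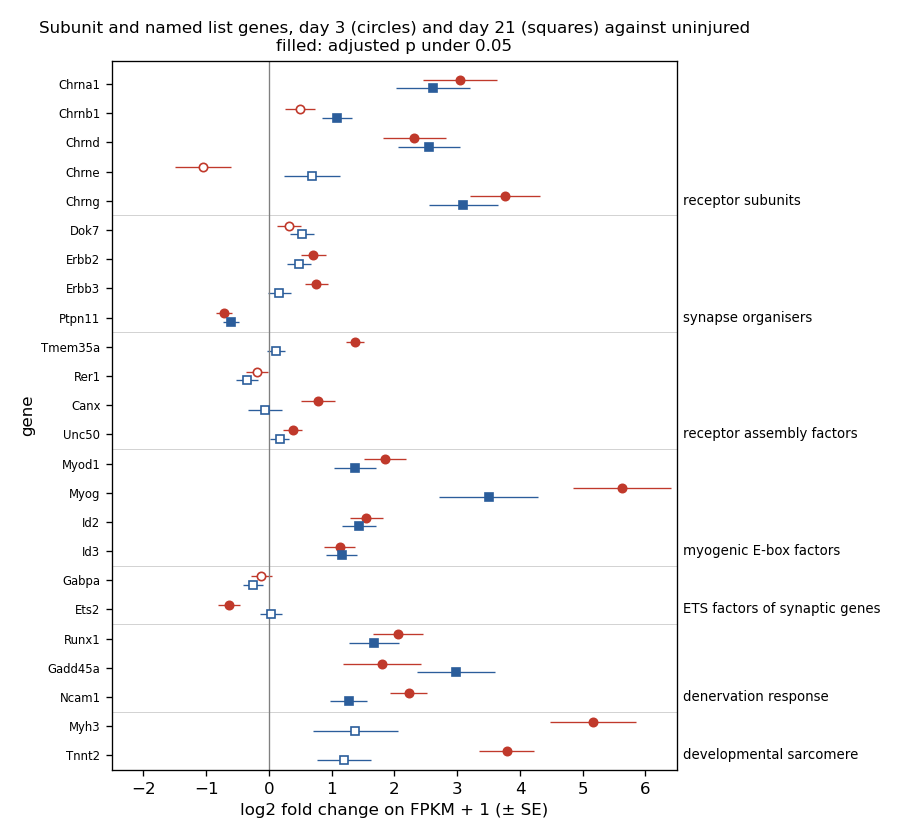
Differences from uninjured muscle on the log2(FPKM + 1) scale (horizontal axis, ± SE) for the subunit genes and the genes of 6 related lists that the text names (vertical axis), at day 3 (circles, n = 5 against 5) and day 21 (squares, n = 5 against 5); filled symbols have an adjusted p under 0.05. Of the subunit genes, 3 are filled at day 3 and 4 at day 21, and of the 2 developmental sarcomere genes 2 and 0.

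The genes whose pattern was most like each subunit gene were ranked by Pearson's r of log2(FPKM + 1) over the 27 samples (n = 27), which share the injury groups. For Chrna1 they were Runx1 (r = 0.971), Ttc9 (0.963), Chrnd (0.955), Cdkn1a (0.940) and Rrad (0.937). For Chrnd they were Chrna1 (0.955), Runx1 (0.951), Rap1gap2 (0.938), Rrad (0.934) and Ttc9 (0.933). The alpha and delta subunit genes were therefore each among the nearest genes of the other. For Chrng they were Myog (0.956), Ankrd1 (0.939), Hes6 (0.938), Myod1 (0.936) and Runx1 (0.933).

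For Chrnb1 the nearest genes were Krt8 (r = 0.933), Sh3d19 (0.932), Krt18 (0.929), Plekha5 (0.926) and Gm34006 (0.921), of which Krt8 and Krt18 are simple epithelial keratins. For Chrne they were Ankrd9 (r = 0.905), Mettl21e (0.884), Nrep (0.883), Nctc1 (0.869) and 4930544D05Rik (0.858). Among the subunit genes, Chrng correlated with Chrna1 (r = 0.914) and Chrnd (0.891), less with Chrnb1 (0.516) and negatively with Chrne (-0.380), all with n = 27. Chrne had r of -0.251 with Chrna1, -0.141 with Chrnd and 0.378 with Chrnb1.

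The 5 genes lie on 3 chromosomes of the mouse build GRCm38. Chrnd (chr1:87190607-87200070, plus strand) and Chrng (chr1:87204657-87212694, plus strand) are neighbours with 4586 bases between them. Chrnb1 (chr11:69784036-69795943) and Chrne (chr11:70614883-70619216) are both on the minus strand of chromosome 11, and Chrna1 (chr2:73563215-73580338) on the minus strand of chromosome 2. The gene 4930544D05Rik (chr11:70615848-70616890) lies inside Chrne on the opposite strand and shares 0 exon bases with it. Its level was 2.0 to 4.78 FPKM in uninjured muscle and 0 to 4.30 at day 3, and since the libraries were not directional, reads of introns there cannot be assigned to a strand.

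Promoter sequences from RefSeq (GRCm38.p6) were matched for 4 of 5 genes, with Chrnd missing. The 250 bases before the RefSeq start were searched for the E-box CANNTG, whose reverse complement has the same form so that both strands are covered, for its form CAGCTG, which is a case of CANNTG and so overlaps it, and for CCGGAA on both strands (TTCCGG on the other). Of 32851 promoters of the same length, 66.2% held CANNTG, 13% CAGCTG and 12% CCGGAA. Those shares count promoters with any match, not the number of matches. Chrng and Chrna1 each held 3 CANNTG, of which 2 were CAGCTG, and 0 CCGGAA. Chrne held 1 CANNTG, of the form CAGCTG, and 1 match to CCGGAA, and Chrnb1 held 3 CANNTG, 0 CAGCTG and 0 CCGGAA. A link between these matches and the levels was not tested. The sequences of Chrng (chr1:87205561-87205810, plus strand), Chrna1 (chr2:73580339-73580588, minus strand) and Chrne (chr11:70619195-70619444, minus strand) are shown so that the fetal, shared and adult subunit genes can be compared, 5′ to 3′ along the gene, with all matches to these motifs in capitals. The Chrng stretch lies inside the gene interval given above, because its RefSeq start is downstream of the GENCODE gene start. Of the 250 bases, 1 in Chrng, 0 in Chrna1, 22 in Chrne and 126 in Chrnb1 lie in GENCODE exons. A match is a description of letters and not a binding site.
Chrng: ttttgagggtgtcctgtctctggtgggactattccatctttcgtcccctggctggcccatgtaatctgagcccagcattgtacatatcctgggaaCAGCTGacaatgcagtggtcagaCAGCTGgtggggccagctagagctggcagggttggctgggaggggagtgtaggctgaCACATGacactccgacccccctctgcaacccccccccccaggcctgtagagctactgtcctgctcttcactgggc
Chrna1: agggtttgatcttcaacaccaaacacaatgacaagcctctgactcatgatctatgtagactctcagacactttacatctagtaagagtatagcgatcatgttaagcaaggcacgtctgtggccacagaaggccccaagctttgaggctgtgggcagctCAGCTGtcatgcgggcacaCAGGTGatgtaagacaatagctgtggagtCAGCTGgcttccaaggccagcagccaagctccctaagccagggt
Chrne: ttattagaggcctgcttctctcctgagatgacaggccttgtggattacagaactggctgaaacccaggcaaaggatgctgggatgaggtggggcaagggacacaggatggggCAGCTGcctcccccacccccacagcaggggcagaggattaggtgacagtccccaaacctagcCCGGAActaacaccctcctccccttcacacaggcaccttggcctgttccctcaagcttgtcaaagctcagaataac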

How the data were processed

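Whole tibialis anterior muscle was sequenced in 27 samples. The submitters' processing notes name HISAT2 2.0.5 for alignment and featureCounts 1.5.0-p3 for counts. The authors deposited FPKM per gene, which their methods base on gene length and on the reads mapped to the gene, scaled by all mapped reads. FPKM times gene length, divided by a common step per sample, gave whole reads in 100% of values (within 0.05 reads). The scaling divisor was 0.747 to 1.48 times the assigned reads, and the methods do not say why they differ.

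The low-value filter (0.5 FPKM or more in 5 or more samples) kept 14630 genes. These entered limma 3.58.1 (R 4.3.3; group means, eBayes with trend) on log2(FPKM + 1), with Benjamini-Hochberg adjustment within each of 10 contrasts. The ratio was tested by exact permutation over samples (Python 3.11.15, numpy 2.4.6), and Poisson limits came from scipy 1.17.1. Named are the subunit genes, genes among the 3 smallest p at day 3 or day 21 of each list, the 5 nearest genes of each subunit gene and overlapping genes. Ric3, Acta1 and Dcn were named outside that rule, and 3 genes of the lists are not reported here. Members and lists were chosen with earlier results of these data known. Alternatives covered pseudocounts, low-value filters, scalings, replicate blocks, limma-voom, gene length and left-out libraries.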

Additional observations from a re-analysis of the deposited data

Results flagged for a closer look

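In 30 groups of samples (5 genes and the ratio, in 5 groups each), 4 values stood far from the others of their group. The measure was the gap to the nearest other sample divided by the range of the group, and chance alone marks about 1 in 20 groups. Day 21 replicate 5 was the lowest of its group in Chrna1 (0.887 of the range), in Chrnd (0.877) and in the ratio of Chrng to Chrne (0.715). Day 3 replicate 5 was the lowest of its group in Chrng (0.879). These 4 values are not independent of each other, since 3 come from 1 library.

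Between times after injury, 3 differences passed the test of the difference itself on the log2(FPKM + 1) scale. Chrnb1 was higher at day 14 than at day 3 by 0.98, Chrne was higher at day 14 than at day 3 by 1.47, and Chrne was higher at day 21 than at day 3 by 1.75 (limma, adjusted p = 0.00396, 0.0167 and 0.00556).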

How the results depend on the processing

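Of the subunit gene results against uninjured muscle, 283 kept their direction and their side of the threshold under the alternatives, 10 gained a call, 6 lost one and 1 changed sign. With 1 library left out in turn, 206 kept both, 2 gained a call and 2 changed sign. In comparisons between times 390 kept both, 40 changed sign, 19 gained a call and 1 lost one, and with 1 library left out 307, 15, 6 and 2. For the differences of the ratio it was 87, 8, 10 and 3, with 2 more that moved with no test, and with 1 library left out 97, 2, 4 and 5. These last 5 are the day 3 differences with 1 uninjured sample left out, where all day 3 samples still lay above all uninjured samples. Depth limits Chrng in uninjured muscle, where 16 reads in all carry its level. Earlier results of the same data had singled out the pair of day 3 replicate 5 and day 7 replicate 5. The other sets of libraries left out were chosen after seeing the data. Their removal narrows the spread within groups by construction, so calls added by it are no support for a difference. The cause of these changes was not tested. Values are log2 differences.

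Rescaling to a common sum turned Chrna1 to -0.13 for day 14 against day 3 and -0.47 for day 21 against day 7. Chrnb1 turned to -0.019 for day 21 against day 3 and -0.22 for day 21 against day 7. Chrnd turned to -0.34 for day 21 against day 3 and -0.066 for day 21 against day 7. Chrng turned to -0.16 for day 21 against day 14. Calls added by this rescaling were, in Chrnb1, 1.31 for day 3 against uninjured (adjusted p = 0.00418). Calls ended by this rescaling were, in Chrna1, 2.89 for day 21 against uninjured (adjusted p = 0.0709). In Chrnb1 they were 1.29 for day 21 against uninjured (adjusted p = 0.111) and 0.66 for day 14 against day 3 (adjusted p = 0.194). This scaling shifts all genes together, and less the median of all genes the values that changed sign were 0.15 (Chrna1, day 14 against day 3), -0.035 (Chrna1, day 21 against day 7), 0.47 (Chrnb1, day 21 against day 3), 0.22 (Chrnb1, day 21 against day 7), 0.15 (Chrnd, day 21 against day 3), 0.37 (Chrnd, day 21 against day 7) and 0.062 (Chrng, day 21 against day 14). Of these, only the one for Chrna1 at day 21 against day 7 still had the other sign.

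Leaving out day 7 replicates 3 and 6 turned Chrna1 to 0.46 for day 7 against day 3, -0.25 for day 14 against day 7 and -0.88 for day 21 against day 7. Chrnd turned to 0.69 for day 7 against day 3 and -0.46 for day 21 against day 7. Chrne turned to -0.38 for day 7 against uninjured. Chrng turned to -0.18 for day 14 against day 7 and -0.079 for day 21 against day 7. The ratio turned to -1.08 for day 14 against day 7 and -1.27 for day 21 against day 7. Calls added by this choice were, in Chrnb1, 0.59 for day 21 against day 3 (adjusted p = 0.0486). In Chrne they were -1.06 for day 3 against uninjured (adjusted p = 0.0314). In the ratio they were 6.26 for day 7 against uninjured (adjusted p = 0.019). The changed sign of the ratio for day 14 against day 7 (-1.08) passed as well (permutation, adjusted p = 0.019).

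Leaving out the 9 libraries nearest another group turned Chrna1 to 0.36 for day 7 against day 3, -0.52 for day 14 against day 7, 0.039 for day 21 against day 14, -0.17 for day 14 against day 3 and -0.49 for day 21 against day 7. Chrnb1 turned to -0.17 for day 21 against day 7. Chrnd turned to 0.68 for day 7 against day 3, -0.18 for day 14 against day 7 and -0.41 for day 21 against day 7. Chrng turned to -0.054 for day 14 against day 7. The ratio turned to -0.63 for day 14 against day 7, 0.31 for day 21 against day 14 and -0.31 for day 21 against day 7. Calls added by this choice were, in Chrnb1, 0.37 for day 3 against uninjured (adjusted p = 0.0356), 1.02 for day 7 against day 3 (adjusted p = 0.000288) and 0.85 for day 21 against day 3 (adjusted p = 0.000535). In Chrne they were -1.40 for day 3 against uninjured (adjusted p = 0.00106) and 1.48 for day 7 against day 3 (adjusted p = 0.00788). In Chrng they were -1.16 for day 7 against day 3 (adjusted p = 1.9e-05), -1.21 for day 14 against day 3 (adjusted p = 4.1e-06) and -0.82 for day 21 against day 3 (adjusted p = 0.000128). In the ratio they were 5.73 for day 7 against uninjured (adjusted p = 0.0446), -3.58 for day 14 against day 3 (adjusted p = 0.0476) and -3.27 for day 21 against day 3 (adjusted p = 0.0476).

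Leaving out 5 libraries picked by eye (day 3 replicate 5, day 7 replicates 3, 5 and 6, day 21 replicate 5) turned Chrna1 to 0.36 for day 7 against day 3, -0.48 for day 14 against day 7, -0.13 for day 14 against day 3 and -0.55 for day 21 against day 7. Chrnb1 turned to -0.24 for day 21 against day 7. Chrnd turned to 0.68 for day 7 against day 3, -0.28 for day 14 against day 7 and -0.45 for day 21 against day 7. Chrng turned to -0.17 for day 14 against day 7. The ratio turned to -0.55 for day 14 against day 7, 0.20 for day 21 against day 14 and -0.35 for day 21 against day 7. Calls added by this choice were, in Chrnb1, 0.37 for day 3 against uninjured (adjusted p = 0.0435), 1.02 for day 7 against day 3 (adjusted p = 0.000219) and 0.78 for day 21 against day 3 (adjusted p = 0.000496). In Chrne they were -1.40 for day 3 against uninjured (adjusted p = 0.000536) and 1.48 for day 7 against day 3 (adjusted p = 0.00464). In Chrng they were -1.16 for day 7 against day 3 (adjusted p = 4.58e-05), -1.33 for day 14 against day 3 (adjusted p = 1.87e-07) and -0.98 for day 21 against day 3 (adjusted p = 3.26e-05). In the ratio they were 5.73 for day 7 against uninjured (adjusted p = 0.0357), -3.51 for day 14 against day 3 (adjusted p = 0.0198) and -3.30 for day 21 against day 3 (adjusted p = 0.0408). The changed sign of the ratio for day 14 against day 7 (-0.55) passed as well (permutation, adjusted p = 0.0397). The values of the subunit genes had been seen when these 5 libraries were picked. Calls of the same genes without these libraries are therefore circular and no support for a difference.

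Leaving out day 3 replicate 5 and day 7 replicate 5 turned Chrna1 to -0.13 for day 14 against day 3. Chrnd turned to -0.086 for day 21 against day 3. Chrne turned to -0.13 for day 14 against day 7. Calls added by this choice were, in Chrnb1, 0.71 for day 21 against day 3 (adjusted p = 0.0177). In Chrne they were -1.40 for day 3 against uninjured (adjusted p = 0.00163) and 1.95 for day 7 against day 3 (adjusted p = 0.000166). In Chrng they were -2.31 for day 7 against day 3 (adjusted p = 0.00121) and -1.33 for day 14 against day 3 (adjusted p = 0.0368). In the ratio they were -5.24 for day 7 against day 3 (adjusted p = 0.0265), -3.51 for day 14 against day 3 (adjusted p = 0.0159) and -3.70 for day 21 against day 3 (adjusted p = 0.0159).

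Limma-voom ended the calls of Chrnd at day 21 (3.62, adjusted p = 0.0786) and of Chrng at day 7 (6.26, adjusted p = 0.0606) and day 21 (7.47, adjusted p = 0.114), all against uninjured muscle. It called Chrne at day 3 (-1.34, adjusted p = 0.0429), as did a pseudocount of 0.1 FPKM (-1.23, adjusted p = 0.0488). Quantile normalization turned Chrna1 to -0.14 for day 21 against day 7. Fitting only the samples of 2 groups gave Chrnb1 0.49 at day 3 (adjusted p = 0.032) and 0.59 for day 21 against day 3 (adjusted p = 0.0205), both called, and 0.78 at day 7 (adjusted p = 0.0785), not called. Taken from summed FPKM per group, with no test, the ratio differed from uninjured muscle by 6.55 at day 14 and 6.43 at day 21. The mean uninjured ratio was -7.90, -4.53 and -3.66 with 0.01, 0.5 and 1 FPKM added, and the transcript length put the mean of day 14 at -0.65.

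With the title number as a replicate block, Chrna1 turned to -0.17 for day 21 against day 7, Chrnd to 0.014 for day 7 against day 3 and Chrng to -0.11 for day 21 against day 14. With the letter as a replicate block, Chrnb1 was called for day 21 against day 3 (0.70, adjusted p = 0.0469). For the ratio, the replicate block of title numbers gave differences from uninjured muscle of 7.62 at day 3, 5.21 at day 14 and 4.98 at day 21 (exact permutation, adjusted p = 0.208 each). With 5 shared numbers the smallest exact p is 0.0625, so this replicate block could not pass the threshold.

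Each library was also left out in turn, which changed the sign or the call of 21 results. Chrna1 then ranged from -0.13 to 0.38 for day 14 against day 3, -0.76 to 0.15 for day 21 against day 3 and -0.35 to 0.62 for day 21 against day 7. Chrnb1 then ranged from 0.52 to 0.71 for day 21 against day 3. Chrnd then ranged from -0.48 to 0.22 for day 7 against day 3 and -0.086 to 0.55 for day 21 against day 3. Chrne then ranged from -1.40 to -0.77 for day 3 against uninjured, -0.059 to 0.55 for day 7 against uninjured, 0.93 to 1.60 for day 7 against day 3, -0.13 to 0.47 for day 14 against day 7 and 1.19 to 1.82 for day 14 against day 3. Chrng then ranged from -2.12 to -1.13 for day 7 against day 3, -0.047 to 0.35 for day 21 against day 14 and -1.33 to -0.55 for day 14 against day 3. The ratio then ranged from 7.04 to 8.69 for day 3 against uninjured, 3.44 to 5.09 for day 7 against uninjured, -4.51 to -2.53 for day 7 against day 3, -0.36 to 0.20 for day 21 against day 14, -3.51 to -1.86 for day 14 against day 3, -3.70 to -2.06 for day 21 against day 3 and -0.11 to 1.54 for day 21 against day 7.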
